A study of Mus musculus with 2 samples.

Results

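Hyaluronan is a long, unbranched glycosaminoglycan of the extracellular matrix, and 10 genes that make it, cut it, bind it or supply its sugars were read in fibrotic mouse liver after TSG-6, a secreted protein that binds hyaluronan. The genes are the synthases Has1, Has2 and Has3, the precursor enzyme Ugdh, the hyaluronidases Hyal1 and Hyal2, the receptors Cd44, Hmmr and Layn, and the link protein gene Hapln1. Probes were taken where the transcript accession printed on the array is a RefSeq transcript of 1 of these genes. This gave 14 probes of 55681 on the array, with 4 probes for Cd44, 2 for Layn and 1 for each of the other 8 genes. Male C57BL/6 mice with liver fibrosis had received recombinant TSG-6 (labelled Rh_TSG-6) intravenously in the TSG-6 group, or PBS, its vehicle, in the PBS group. The liver RNA was collected 2 weeks later. RNA was extracted from each of 3 mice in a group, pooled in equal parts and run on 1 one-colour Agilent array, so that each group is 1 pool. The dose, the age of the mice and the way fibrosis was produced are not given in the sources used here, and no liver without fibrosis was analysed here.

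Hyaluronan chains are built at the plasma membrane by the HAS synthases from UDP-glucuronate and UDP-N-acetylglucosamine, and are cut by hyaluronidases into fragments that lysosomal enzymes take apart. In the liver, stellate cells, the matrix-producing cells of the injured organ, are a known source of hyaluronan, and sinusoidal endothelial cells clear it from the blood. Hyaluronan is known to accumulate in fibrotic liver, where CD44 on leukocytes and stromal cells binds it, and TSG-6 cross-links it by transferring heavy chains of the inter-alpha-inhibitor onto it.

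Levels below are processed signals, the scanner software's background-subtracted brightness of a spot. Differences are log2 signals relative to each array's 75th percentile (a signal of 2476 on the TSG-6 array and 3159 on the PBS array), TSG-6 pool minus PBS pool. This scaling adds 0.35 to every unscaled log2 difference. The ± after a signal is the scanner software's own error for that spot, and the ± after a difference combines the errors of both spots. Replicate spots of 327 other probes gave an SD of 0.13 for the log2 difference. Neither error holds the spread between mice, and with 1 pool per group no test could be made. A probe was called past 2-fold by size alone. Signals of different probes are not comparable with each other, because each probe binds with its own efficiency.

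Of the spots without an outlier flag, 73.9% on the TSG-6 array and 73.1% on the PBS array were well above background. None of the 14 probes carried an outlier flag or was saturated. The albumin probe, a marker of hepatocytes, read 63130 in the TSG-6 pool and 62503 in the PBS pool. The choice of scaling shifts most values one way, by a constant for each array with median, spike-in and percentile scaling and by amounts that differ between probes with quantile normalization and loess. Relative to the values used here, the median difference of all probes moved by -0.12 with quantile normalization, -0.11 with median scaling, -0.16 with loess, -0.35 with spike-in scaling and 0.29 with the percentile of unflagged spots. Among all 36398 probes measured on both arrays, 1149 were lower by 2-fold or more in the TSG-6 pool and 1267 were higher by as much. These counts were 2576 lower and 486 higher with spike-in scaling, 1591 and 842 with loess, 1431 and 963 with quantile normalization, 1494 and 900 with median scaling, and 625 and 3171 with the percentile of unflagged spots.

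After scaling, Has2 (as a bound), Hapln1 and 2 of the 4 Cd44 probes were lower with TSG-6 by 2-fold or more. The hyaluronidases and Ugdh gave nearly the same unscaled signal on both arrays, and scaled differences from 0.30 to 0.35. Of the 14 probes, 12 were well above background on both arrays, 1 (Has2) in the PBS pool only and 1 (Has3) on neither. Of all probes with unflagged spots on both arrays, 69.8%, 1.67% and 25.1% fell in these classes. A further 3.42% were above background in the TSG-6 pool only. Of the 12, 3 were lower by 2-fold or more, against 3.16% of all measured probes, and 0 were higher by 2-fold or more, against 3.48%. The 3 probes read 2 genes, Cd44 and Hapln1. The 12 probes had a median difference of -0.33, against 0.15 for all probes, and 8 lay below 0, against 36.1% of all probes. Since 6 of the 12 read Cd44 or Layn, they are not 12 independent values.

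**Figure D1:**
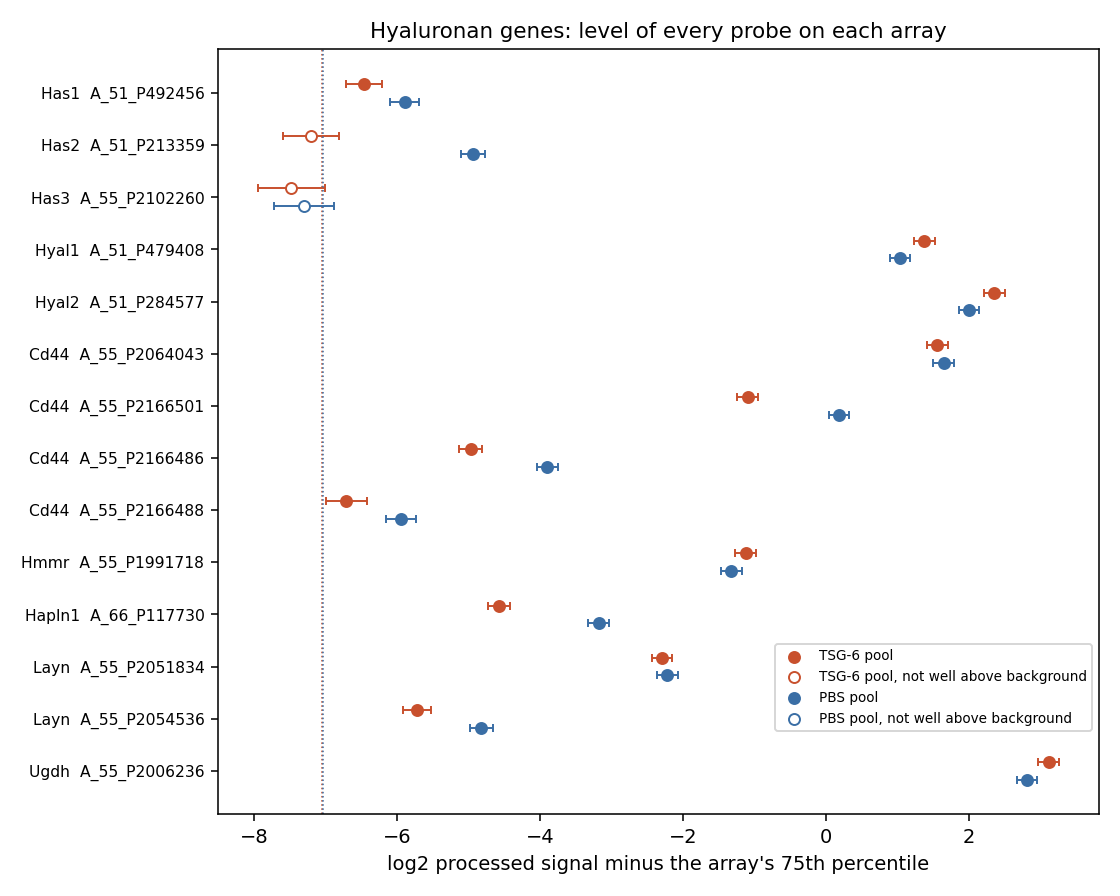
Level of each of the 14 probes (rows) in the TSG-6 pool (upper point) and in the PBS pool (lower point), as log2 processed signal minus the array's 75th percentile. Bars are the scanner software's spot error, open points are not well above background, and dotted lines are the lowest detected levels of the 2 arrays. The pools lie closest for Layn A_55_P2051834, Cd44 A_55_P2064043 and Has3, and Has2 is the only gene above background in the PBS pool alone.

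The synthases were dim on both arrays. The probe of Has2, the synthase known for most hyaluronan made by activated stellate cells, read 16.8 ± 4.52 in the TSG-6 pool, not well above background, and 103 ± 11.52 in the PBS pool. Set against the lowest detected level of the TSG-6 array, Has2 was at least 4.34-fold lower with TSG-6. Of the 868 probes detected in the PBS pool alone that gave such a bound, 5.41% had a larger one. A bound of at least 2-fold was common in that class, reached by 23.1% of its 871 probes. The bound of Has2 ran from -2.47 to -0.69 on the log2 scale over 10 settings of background correction, scaling and flags. It was under 2-fold with normexp background correction only, which adds a constant to every signal and so shrinks the differences of dim probes. The 10 settings count the main values themselves. They also count the deposited value table, which differs by a small constant, and keeping flagged spots, which changes no hyaluronan probe. These are not separate checks of the main values.

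Has1, the synthase of lower activity, read 28.1 ± 4.94 in the TSG-6 pool and 53.1 ± 7.50 in the PBS pool. Its difference was -0.57 ± 0.33, or 1.48-fold lower, and it was -0.06 with normexp correction and -0.92 with spike-in scaling. Among probes of like brightness (10 equal classes of mean level), 6.32% had a lower difference than Has1. Has3, which makes shorter chains, read 13.8 ± 4.47 in the TSG-6 pool and 19.9 ± 5.83 in the PBS pool, both not well above background, so that it has no fold. Has1 thus gave no difference past 2-fold, and Has3 gave none that could be read. Has2 alone of the synthases was detected in 1 pool and not in the other.

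Ugdh, which oxidises UDP-glucose to the UDP-glucuronate used by the synthases and by hepatocyte glucuronidation, was bright on both arrays. It read 21441 ± 2144 in the TSG-6 pool and 22168 ± 2217 in the PBS pool. The difference was 0.30 ± 0.20 after scaling, where 64.5% of probes of like brightness were lower, and -0.05 with spike-in scaling.

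The 2 hyaluronidase probes gave signals within 1% of each other on the 2 arrays. Hyal2, the membrane-anchored enzyme that cuts long chains at the cell surface, read 12654 ± 1265 in the TSG-6 pool and 12633 ± 1263 in the PBS pool. Hyal1, the lysosomal enzyme that cuts the resulting fragments, read 6415 ± 642 in the TSG-6 pool and 6472 ± 647 in the PBS pool. Their scaled differences were 0.35 ± 0.20 and 0.34 ± 0.20, close to the 0.35 that the scaling adds, and with spike-in scaling they were 0.00 for Hyal2 and -0.01 for Hyal1. The 2 genes are direct protein-coding neighbours on chromosome 9.

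Hapln1 had the lowest difference of the 12 probes. It encodes the link protein that holds proteoglycans such as versican on hyaluronan chains. Its probe read 104 ± 11.1 in the TSG-6 pool and 349 ± 35.3 in the PBS pool. Hapln1 was 2.63-fold lower in the TSG-6 pool, a difference of -1.40 ± 0.21, and 2.14% of probes of like brightness were lower still. The difference stayed past 2-fold in 9 of the same 10 settings, not all of them separate checks, and was -0.90 with normexp correction. Vcan, which encodes versican and is the protein-coding neighbour of Hapln1 on chromosome 13, read 387 in the TSG-6 pool and 1070 in the PBS pool with its brightest probe, 2.17-fold lower. A further measured Vcan probe differed by -0.04. The Vcan difference of -1.12 was -0.93 with normexp correction and -0.83 with the percentile of unflagged spots.

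Cd44 encodes the main cell-surface receptor of hyaluronan, present on leukocytes, stromal cells and bile duct cells. Its 4 probes carry the same transcript accession and differed among themselves. The brightest probe, A_55_P2064043, read 7278 ± 728 in the TSG-6 pool and 9884 ± 988 in the PBS pool, a difference of -0.09 ± 0.20 that became 0.20 with the percentile of unflagged spots and -0.44 with spike-in scaling. The first value is within the spot error, and the last is larger than it.

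The other Cd44 probes lay lower in the TSG-6 pool. A_55_P2166501 read 1158 ± 116 in the TSG-6 pool and 3582 ± 358 in the PBS pool, 2.42-fold lower (-1.28 ± 0.20). A_55_P2166486 read 78.7 ± 9.09 in the TSG-6 pool and 212 ± 21.8 in the PBS pool, 2.11-fold lower (-1.08 ± 0.22). A_55_P2166488 read 23.6 ± 4.73 in the TSG-6 pool and 51.0 ± 7.47 in the PBS pool, 1.70-fold lower (-0.76 ± 0.36). All 3 were below 0 in each of the same 10 settings, but A_55_P2166501 differed by -0.99 with the percentile of unflagged spots. A_55_P2166486 differed by -0.79 with that percentile and by -0.68 with normexp correction. A_55_P2166488 differed by -0.09 with normexp correction, and was past 2-fold with loess (-1.02) and spike-in scaling (-1.11).

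The spread of 1.19 between the Cd44 probes does not depend on any constant that scales an array. It was wider than the median of 0.60 over the 48 genes with 4 measured probes, of which 18.8% spread as widely or more. The mean over the 4 Cd44 probes was -0.80. The files used here give no probe position, so which exons or transcript forms each probe reads was not analysed here.

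Layn, which encodes layilin, a C-type lectin-like hyaluronan receptor, gave the same kind of split. Its brighter probe, A_55_P2051834, read 504 ± 50.6 in the TSG-6 pool and 678 ± 68.0 in the PBS pool, a difference of -0.08 ± 0.20 that was 0.21 with the percentile of unflagged spots and -0.43 with spike-in scaling. The dimmer probe, A_55_P2054536, read 46.9 ± 6.36 in the TSG-6 pool and 111 ± 12.4 in the PBS pool, 1.86-fold lower (-0.89 ± 0.25, and -0.24 with normexp correction). It was past 2-fold in 4 of the same 10 settings and lowest with spike-in scaling (-1.24). The gap of 0.82 between the 2 probes was reached by 7.21% of the 2984 genes with 2 measured probes, whose median gap was 0.21.

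Hmmr encodes RHAMM, a hyaluronan-binding protein that also sits on the mitotic spindle and is made in dividing cells. It read 1133 ± 113 in the TSG-6 pool and 1260 ± 126 in the PBS pool. The difference was 0.20 ± 0.20, about the size of its spot error, and -0.15 with spike-in scaling. Of 14 measured dividing-cell markers, 2 were past 2-fold on the lower side and 0 on the higher, against 4.29% and 2.94% of all genes, with a median of -0.44 against 0.08. Aurkb differed by -1.21 (-0.58 with normexp correction), and Cdk1 by -1.16 with its brightest probe and by -0.68 and 0.44 with the others. Their part in the value of Hmmr was not tested.

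**Figure D2:**
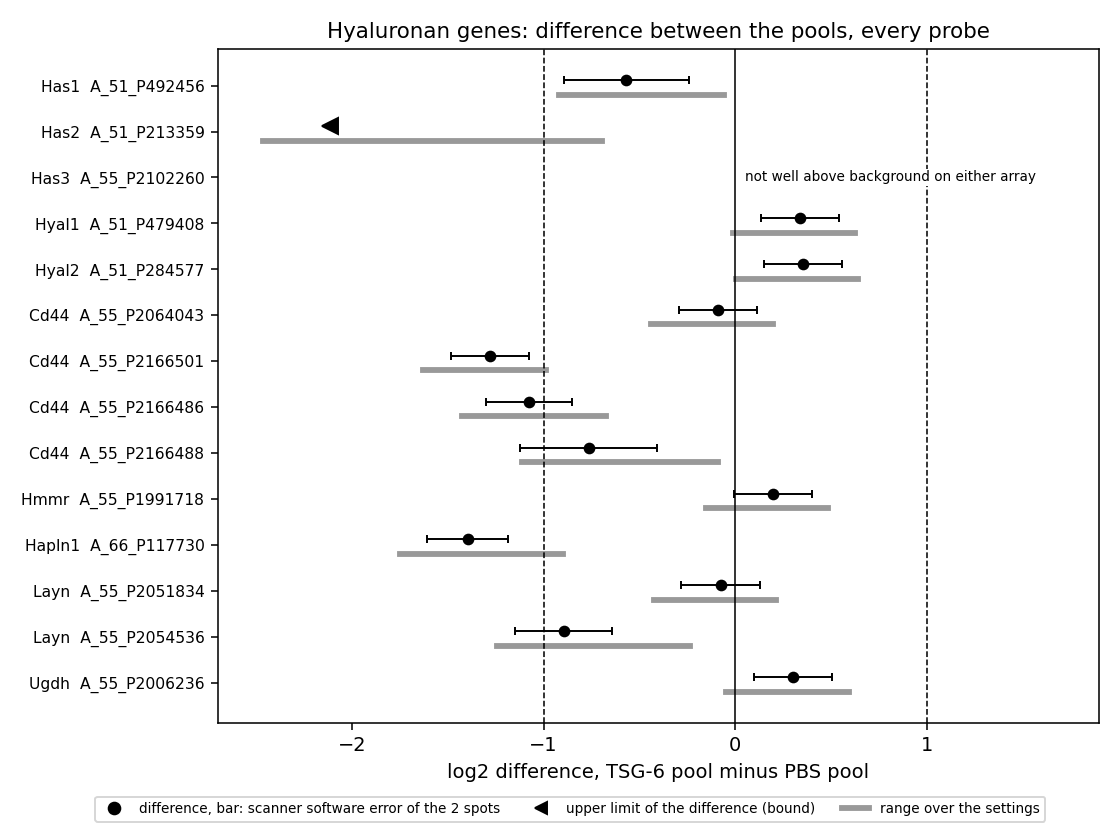
Log2 difference (TSG-6 pool minus PBS pool) of every probe, with the scanner software's error of the 2 spots as bars; grey lines span the lowest to the highest value over 10 settings, and dashed lines mark 2-fold. Hapln1 lies lowest of the measured probes at -1.40, the triangle is the bound of Has2 at -2.12, and the grey lines of Hyal1, Ugdh, Hmmr, Layn A_55_P2051834 and Cd44 A_55_P2064043 cross 0.

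Read with 1 probe per gene, the brightest, 8 of the 10 genes were measured on both arrays. Of these, 1 (Hapln1) was at least 2-fold lower, against 4.29% of 15151 genes, and 0 were at least 2-fold higher, against 2.94%. Has1, Cd44, Hapln1 and Layn lay below 0, and Hyal1, Hyal2, Hmmr and Ugdh above, where 42.5% of all genes lay below 0. The median over the 8 genes was 0.06, close to the 0.08 of all genes. On this reading Hapln1 was the lowest measured gene at -1.40 and Has1 the next at -0.57, while Cd44 and Layn were at -0.09 and -0.08.

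**Figure D3:**
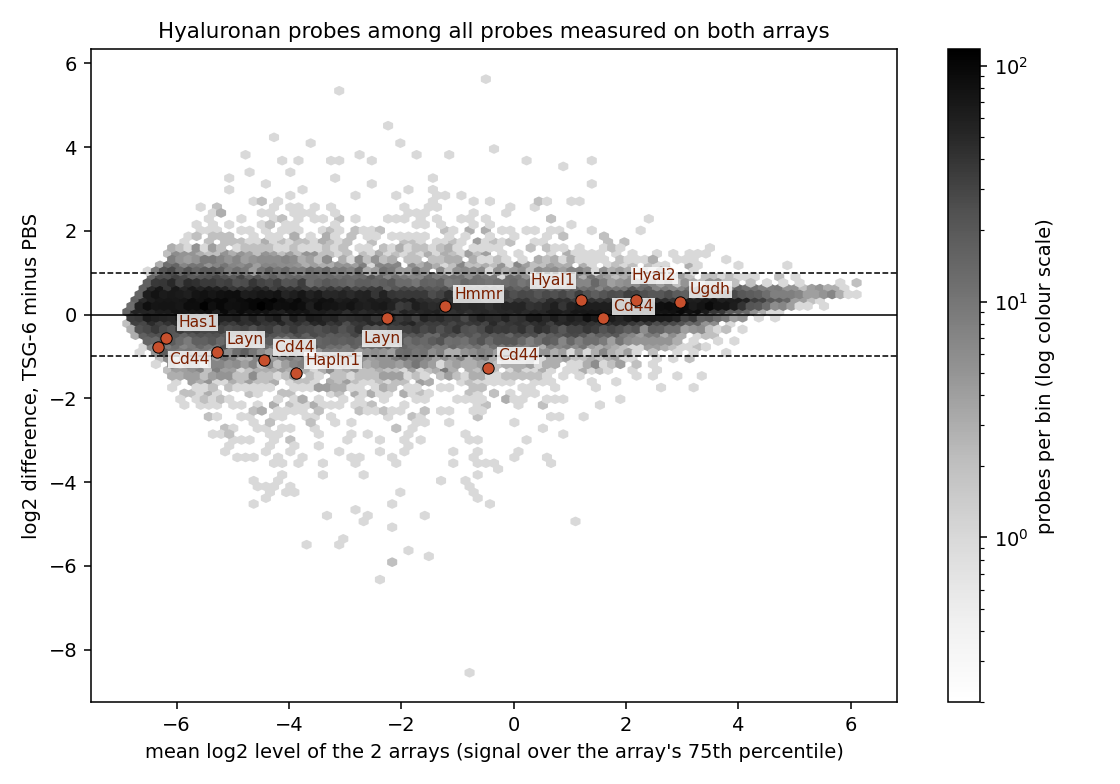
Log2 difference (TSG-6 minus PBS) against mean log2 level for all 36398 probes measured on both arrays (grey, darker where more probes fall) and for the 12 measured hyaluronan probes (orange, named). Hyal1, Hyal2 and Ugdh sit on the right within the bulk of bright probes, while Hapln1 and 2 Cd44 probes lie under the dashed 2-fold line at -1.

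The promoters of Cd44 and Hapln1, the 2 genes with a probe at least 2-fold lower on both arrays, are shown so that their proximal sequences can be set side by side. They are from RefSeq on build GRCm38.p6, from 250 bases before to 50 after the annotated start, Cd44 at chr2:102901616-102901915 on the minus strand and Hapln1 at chr13:89540386-89540685 on the plus strand. Capitals mark the GC box GGGCGG.
Cd44: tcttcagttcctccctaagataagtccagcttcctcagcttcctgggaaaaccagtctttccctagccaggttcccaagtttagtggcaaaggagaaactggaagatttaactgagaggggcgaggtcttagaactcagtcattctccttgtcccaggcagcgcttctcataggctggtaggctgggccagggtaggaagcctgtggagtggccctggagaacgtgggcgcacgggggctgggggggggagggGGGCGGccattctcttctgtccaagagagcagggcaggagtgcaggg
Hapln1: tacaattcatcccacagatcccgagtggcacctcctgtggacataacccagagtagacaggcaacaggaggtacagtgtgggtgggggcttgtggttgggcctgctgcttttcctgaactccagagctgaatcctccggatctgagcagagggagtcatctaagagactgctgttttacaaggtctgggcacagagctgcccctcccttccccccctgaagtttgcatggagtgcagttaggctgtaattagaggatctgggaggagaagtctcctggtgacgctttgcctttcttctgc
Both strands were searched for the GC box, the AP-1 site TGANTCA, the TEAD site GGAATG, the TATA box TATAAA and the STAT site TTCNNNGAA. Of the 10 genes, 8 had a promoter entry, and Has2 and Has3 had none. The GC box was in 6 of the 8 (Cd44, Ugdh, Layn, Hyal1, Hyal2 and Hmmr), against 35.7% of 32851 promoters of the same length. The TEAD letters were in 1 (Hyal2), against 14.7% of all promoters. The AP-1, TATA and STAT letters were in 0 of the 8, against 7.81%, 13.6% and 8.30% of all promoters. The windows of Cd44 and Hapln1 had 6 and 3 CpG dinucleotides, against 5 in Has1 and 8 to 27 in the other 5. A match or its absence describes these windows only.

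Other genes of hyaluronan metabolism were read from 6 lists. Of 65 names, 51 genes were measured on both arrays and 6 were above background on neither. Itih2, Rdx and Stab1 had only flagged spots and were left out. Of the 51, 3 were lower by 2-fold or more (Pgm3, Itgav and Vcan) and 0 were higher by as much, with 25 below 0 and a median of 0.01. These shares are near the 4.29%, 2.94% and 42.5% of all genes. Itgav, an integrin subunit, read 1195 in the TSG-6 pool and 3182 in the PBS pool, 2.09-fold lower with its brighter probe and -0.71 with the other, and -0.77 with the percentile of unflagged spots.

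The sugar-nucleotide genes fell on both sides of 0, a grouping made after the values were seen. In the branch to UDP-N-acetylglucosamine, all 5 genes lay below 0, from -1.51 to -0.03, where 42.5% of all genes did. Pgm3, its phosphoacetylglucosamine mutase, read 45.1 in the TSG-6 pool and 164 in the PBS pool, 2.85-fold lower, but -0.63 with normexp correction. Gfpt1, the entry enzyme, read 10144 in the TSG-6 pool and 21508 in the PBS pool with its brighter probe (-0.73), and its dimmer probe differed by -1.69. Gfpt2 differed by -0.56, Uap1 by -0.38 and Gnpnat1 by -0.03, which became 0.26 with the percentile of unflagged spots. Ugp2, which makes the UDP-glucose that Ugdh uses, differed by 0.29, and the nucleotide sugar transporters Slc35d1 and Slc35d2 by 0.31 and 0.44. Of these 3, Ugp2 and Slc35d1 turned to -0.06 and -0.04 with spike-in scaling. Of the glycolytic genes upstream of both branches, the hexokinase gene Hk1 differed by -0.48 and the isomerase gene Gpi1 by 0.14 (-0.21 with spike-in scaling).

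No other hyaluronidase or lysosomal enzyme passed 2-fold among 6 measured genes. Hyal3 differed by -0.72, and the cell-surface hyaluronidase Cemip2 by -0.65, and both passed it with spike-in scaling, Hyal3 at -1.07 and Cemip2 just at the 2-fold line. Cemip, the secreted hyaluronan-depolymerising protein, read 59.9 in the TSG-6 pool and 70.8 in the PBS pool, a difference of 0.11 that was -0.24 with spike-in scaling. Hexa, a subunit of lysosomal hexosaminidase, differed by 0.05 (-0.30 with spike-in scaling), and the sialic acid exporter Slc17a5 by 0.36 with its brightest probe and -0.38 with the other. Hyal5 was detected in the PBS pool alone, with a bound of at least 1.51-fold lower for TSG-6. Hyal4, Hyal6 and Spam1 were above background on neither array.

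Of the receptors by which sinusoidal endothelium takes up hyaluronan, Stab2 read 16461 in the TSG-6 pool and 17391 in the PBS pool, a difference of 0.27 that was -0.08 with spike-in scaling. Lyve1 read 7364 in the TSG-6 pool and 11208 in the PBS pool, a difference of -0.26 that was 0.03 with the percentile of unflagged spots. Neither was past 2-fold. Ptprz1, a receptor-type phosphatase, was detected in the TSG-6 pool alone, with a bound of 0.14 on the log2 scale. Among link proteins and hyalectans, Hapln3 differed by 0.10 (-0.25 with spike-in scaling) and Acan by 0.42, while Hapln4 differed by -0.63. Hapln2, Bcan and Ncan were above background on neither array. The bright hyaladherins Habp2 and C1qbp differed by 0.32 and 0.43, Habp2 by -0.03 with spike-in scaling.

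The gene of TSG-6 itself, Tnfaip6, split by probe as Cd44 did. Its brightest probe differed by 0.22 (-0.13 with spike-in scaling) and the other 2 by -1.24 and -1.37. Of the inter-alpha-inhibitor genes, Itih4 differed by 0.37 and Ambp by 0.21 (-0.14 with spike-in scaling), and none of the 7 measured genes of that list was past 2-fold. Among CD44 partners 0 of 13 were past 2-fold. Osteopontin (Spp1), a CD44 ligand, read 19952 in the TSG-6 pool and 44790 in the PBS pool, 1.76-fold lower, and it was past 2-fold with spike-in scaling (-1.17). Adam17, a sheddase of CD44, read 33105 in the TSG-6 pool and 25269 in the PBS pool, 1.67-fold higher, and past 2-fold with the percentile of unflagged spots (1.03). The splicing regulators of CD44 in epithelia, Esrp1 and Esrp2, differed by 0.32 (-0.03 with spike-in scaling) and 0.64.

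**Figure D4:**
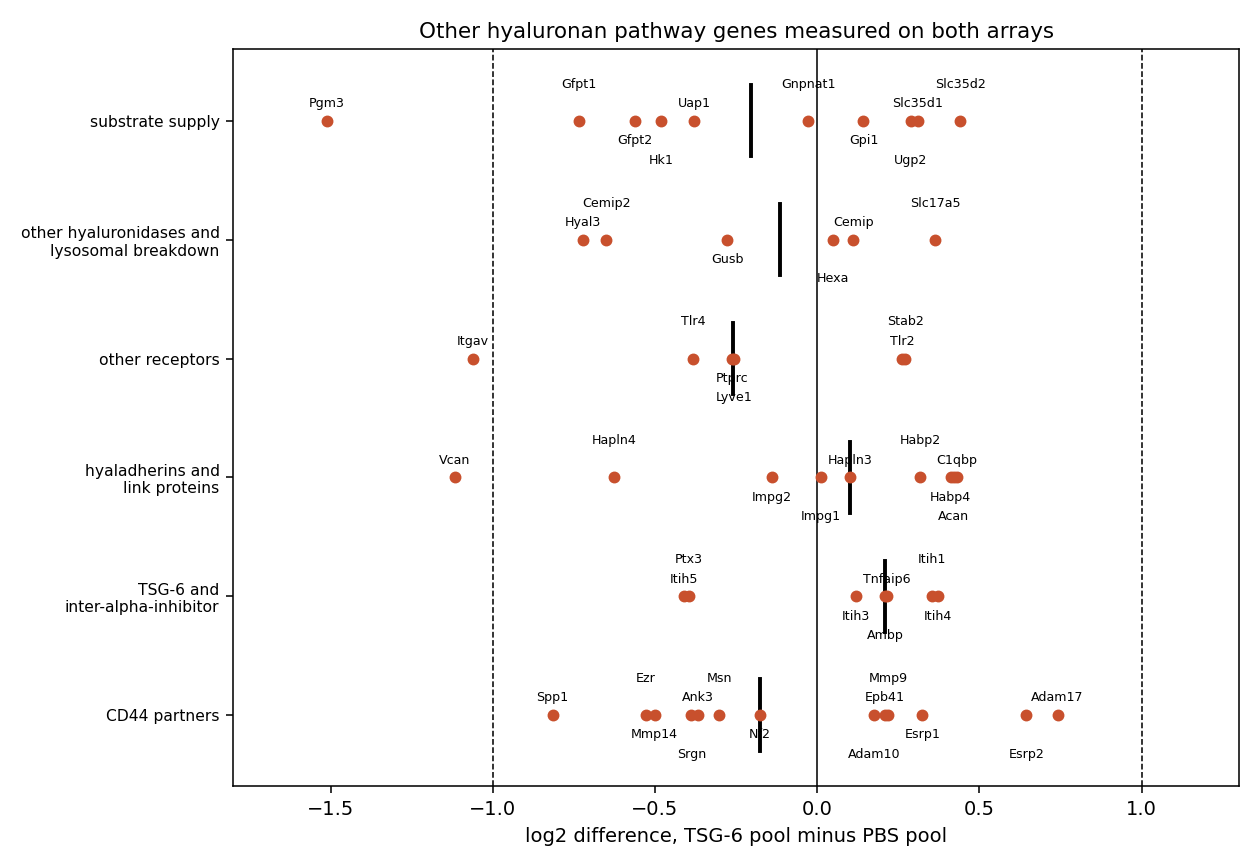
Log2 difference (TSG-6 pool minus PBS pool) of the 51 other pathway genes measured on both arrays, in 6 lists, each gene read from its brightest probe; black bars are list medians and dashed lines mark 2-fold. Pgm3, Itgav and Vcan lie left of the 2-fold line, and no gene lies right of it.

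Markers of the cells that could carry these transcripts moved as well. In a bulk sample fewer cells of a type and less RNA per cell cannot be told apart. Among the 12 activated stellate cell markers, all measured, 5 lay past 2-fold on the lower side (Acta2 at -2.47, Cthrc1 at -1.91, Lox at -1.64, Des at -1.23 and Tagln at -1.07) and 0 on the higher, against 4.29% and 2.94% of all genes, with a median of -0.78 and a summed level of 40.2 in the TSG-6 pool and 61.6 in the PBS pool, in units of the array's 75th percentile. With the percentile of unflagged spots Des and Tagln were at -0.95 and -0.78. Of 6 measured quiescent stellate cell markers, 1 was past 2-fold on the lower side (Hgf at -1.24, and -0.95 with that percentile), and the median was -0.14. Mesothelial and portal fibroblast markers had a median of -0.24 with 0 of 8 past 2-fold. The summed level of cholangiocyte markers was 12.6 in the TSG-6 pool and 19.0 in the PBS pool, with a median of -0.16, 0 of 6 past 2-fold and Cftr above background on neither array. Spp1, also on that list, carried most of the gap: without it the other 5 markers summed to 4.58 in the TSG-6 pool and 4.78 in the PBS pool, a sum taken after the values were seen. In all these sums a probe counts by its own brightness, and each TSG-6 sum carries the 0.35 (log2) that the scaling adds. The brightest stromal markers lay nearer 0. Col1a2 differed by -0.33, Col3a1 by -0.28 (0.01 with the percentile of unflagged spots), and Fbln2, a portal fibroblast marker, by -0.29 (0.00 with that percentile), while Ecm1 and Gas6 differed by 0.46 each.

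Among markers of blood-derived and resident immune cells, macrophage and monocyte markers (0 of 8 past 2-fold, median 0.18) had summed levels of 91.1 in the TSG-6 pool and 82.8 in the PBS pool. Of these 8, 3 lay below 0, Trem2 at -0.82 (-1.17 with spike-in scaling), Ccr2 at -0.56 and Adgre1 at -0.25 (0.04 with the percentile of unflagged spots). All TSG-6 sums carry the 0.35 (log2) that the scaling adds, and with spike-in scaling all 8 markers lay below 0. Itgam, the brightest of them, differed by 0.33 with its brightest probe and by -0.37 and -1.12 with the others. Lymphocyte markers (0 of 10, median -0.10) had summed levels of 5.65 in the TSG-6 pool and 5.71 in the PBS pool. Of 8 measured neutrophil markers, 4 were at least 2-fold higher (Mpo 14.8-fold, Ngp 12.7-fold, Ltf 11.2-fold and Elane 9.10-fold), against 2.94% of all genes, and the summed level was 53.1 in the TSG-6 pool and 30.6 in the PBS pool. The brightest neutrophil markers, S100a9 and Csf3r, differed by 0.18 (-0.17 with spike-in scaling) and 0.44. S100a8 differed by 0.85 (1.14 with the percentile of unflagged spots). Of the 8, 1 lay below 0, the receptor gene Cxcr2 at -0.19 (0.10 with that percentile). Sinusoidal endothelial markers had a median of 0.39 with 0 of 9 past 2-fold. Hepatocyte markers had a median of 0.43, with 1 of 7 past 2-fold (Cyp2e1, 2.27-fold higher). Both medians are close to the 0.35 that the scaling adds. With spike-in scaling the sinusoidal markers ran from -0.61 (Lyve1) to 0.48 (Dnase1l3). The hepatocyte markers then ran from 0.01 (Apoa1) to 0.84 (Cyp2e1), with Alb at 0.02. Cftr and the dividing-cell gene Cenpf had usable spots but were above background on neither array, and every other marker with usable spots was measured on both. The part of any cell type in the values of Has2, Hapln1, Cd44 and Layn was not tested.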

How the data were processed

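Liver RNA of 3 pooled mice per group was labelled from 0.2 ug per array with Cy3, per the labels' protocols, and hybridised to 2 arrays of 1 slide. Spot intensity in the deposited files is the processed signal, background-subtracted and detrended within the array, with its error and flags, per the file headers. Feature Extraction (Agilent) was version 11.5.1.1 by those headers and 10.7 per the submitters' processing notes. The deposited value table holds log2 values of the same arrays: each column equals the log2 processed signal minus 1 constant, so its scale and direction are known. Its column medians are -3.77 for TSG-6 and -3.90 for PBS.

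Values were log2 processed signal minus the 75th percentile of that array, taken over every spot that is not a control. Control spots and spots flagged as outliers were left out, 6.44% of non-control spots on the TSG-6 array and 3.40% on the PBS array. Detection required the scanner's well-above-background flag in 50% or more of a probe's spots. Bounds used the higher of the dim probe's level and the lowest detected level of that array, a signal of 18.6 on the TSG-6 array and 24.1 on the PBS array. Accessions, without versions, were matched to symbols through a RefSeq table of GRCm38.p6, used for names and neighbours, since the array was designed on mm9, per the file headers. Of 55681 probes 26762 matched. A gene with several probes was read from the brightest, taking those detected on both arrays first.

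Alternatives used limma 3.58.1 in R 4.3.3 (normexp with an offset of 50 on the median signal and background, quantile, loess), Python 3.11.15 and 8 spike-in probes. The steps were tested on simulated data made from the PBS array, where the dimmest probes were not among those changed. Detection was the same on both simulated arrays, so the bounds were not tested. No p-value was computed, because 1 array per group leaves no spread to test against; precision is limited by having 2 arrays. The 10 genes and all lists were chosen with earlier results of these data known. Named genes were the 10 members, and of each list those past 2-fold, the largest bound and the 2 brightest (for the cell marker lists, those of the stromal and neutrophil lists that carry the description); other genes were named after their values were seen.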

Additional observations from a re-analysis of the deposited data

How the results depend on the processing

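Of the 12 measured probes, 3 were lower by 2-fold or more. The count was 1 with normexp correction (Cd44 A_55_P2166501), 1 with the percentile of unflagged spots (Hapln1), and 5 with loess and 5 with spike-in scaling. Cd44 A_55_P2166488 and Layn A_55_P2054536 were the probes added with loess and with spike-in scaling. By gene, 1 was lower, 0 with normexp correction and 2 with no filter on dim probes, where Has2 is counted. No member was 2-fold higher in any setting run. Of the other pathway genes, 3 were at least 2-fold lower, 1 with normexp correction, 7 with spike-in scaling, 1 with the percentile of unflagged spots and 5 with no filter. None was higher, but 1 was with the percentile of unflagged spots and 1 with no filter. Their median of 0.01 was -0.15 with quantile normalization, -0.13 with loess, -0.34 with spike-in scaling and 0.30 with the percentile of unflagged spots. The deposited value table, median scaling, the percentile of detected spots, keeping flagged spots, the stricter filter and the mean over probes left these counts within 1.5 times and the median within the spot SD of 0.13. Over the single probes, 94 values moved by less than that SD and 45 by more, and none past 2-fold changed sign. The 94 include values from settings that leave a probe's value as it is or shift it by a small constant. These are the deposited value table, keeping flagged spots and the filters on dim probes. Leaving out a replicate was not possible with 1 array per group. No paired analysis was possible because each group has 1 pool. Has3, Has2 in the TSG-6 pool and the dimmest probes of Has1 and Cd44 lie at or near background, where the signal limits what can be read.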

Other observations

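The split between probes seen for Cd44 and Layn was set against all 3469 genes with 2 or more measured probes. Of their 4028 dimmer probes, 10.97% differed by at least 0.5 (log2) less than the brightest probe of the gene and 9.14% by at least 0.5 more, with a median gap of -0.03. All 4 dimmer probes of Cd44 and Layn were at least 0.5 below the brightest, but these genes were picked because their probes split. With normexp correction the gap was under 0.5 for Cd44 A_55_P2166488 (-0.09, brightest Cd44 probe -0.03). It was also under 0.5 for the dimmer Layn probe (-0.24, brighter probe -0.03).

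The protein-coding neighbours of the 10 genes were read as well, a choice made after the values were seen. Of 13 measured neighbours that are not members, 2 were lower by 2-fold or more with TSG-6 and 1 was higher by as much, against 4.29% and 2.94% of all genes. Apart from Vcan, no values under other settings are given here for these neighbours. Spaca6, which lies beside Has1 on chromosome 17, read 71.3 in the TSG-6 pool and 412 in the PBS pool, 4.53-fold lower. Its TSG-6 signal is in the dim range where normexp correction shrank the differences of other genes. Vcan beside Hapln1 was the other lower neighbour. The glutamate transporter gene Slc1a2, which lies beside Cd44 on chromosome 2, read 12861 in the TSG-6 pool and 333 in the PBS pool with its brighter probe, 49.3-fold higher, and its other probe differed by 1.17.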
